A study of Mus musculus with 10 samples.

Results

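Matrix metalloproteases (MMPs), ADAMTS proteases and tissue inhibitors of metalloproteases (TIMPs) were examined in MC3T3-E1 cells, an osteoblast precursor line from mouse calvaria, at 5 stages of differentiation. The genes were taken by symbol in GENCODE vM21: every Mmp gene with a number and an optional a or b, every Adamts gene with a number, and Timp1 to Timp4. This gave 46 of the 40620 genes in the count table, of which 23 were Mmp, 19 Adamts and 4 Timp genes. No expression value entered this rule, though earlier results of these data were known when the genes were chosen.

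RNA was sequenced from subconfluent and confluent cells in growth medium and from cells kept for 24 h, 14 d or 21 d in osteogenic medium, to which β-glycerophosphate (10 mM) and ascorbic acid (50 µg/ml) had been added. Each stage had 2 replicate libraries, named A and B. The labels do not say that A and B came from separate cultures, so the p-values measure the spread between these libraries, which may be technical. The line was purchased as a subclone, and cultures of the same age without the osteogenic additives were not analysed here, so time in culture and the additives cannot be told apart.

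The total count on genes ranged from 44736156 to 162939333 per library. The 24 h libraries stood apart: the SD of the log2 ratio of A to B over 16133 genes was 0.69 at 24 h and 0.29 to 0.33 at the other stages. In 24 h A, genes under 2 kb were higher than in 24 h B (median log2 ratio 0.31) and genes over 5 kb were lower (median −0.40). Of the 25 Mmp, Adamts and Timp genes with at least 10 counts in every library, 20 were lower in 24 h A. The subconfluent, confluent and 24 h libraries carry a different pair of index sequences from the 14 d and 21 d libraries. A difference across this boundary cannot be told apart from one that goes with the index sequences. The labels name no batch, and a shared index pair does not show that libraries were prepared or sequenced together.

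The markers fixed for the cell type were present. The summed RPKM (reads scaled to gene length in kilobases and to sequencing depth, as deposited) of the 6 osteoblast markers Runx2, Sp7, Alpl, Col1a1, Ibsp and Bglap was 4890 to 15800. All 6 osteoclast markers were below 0.1 RPKM in every library, with sums of 0.0303 to 0.107, and Calcr and Dcstamp were at 0 counts. Endothelial markers summed to 0.00821 to 0.107 RPKM and adipocyte markers to 0.0224 to 1.09 RPKM. The blood cell list summed to 8.17 to 14.0 RPKM through Itgam and Csf1r, with Ptprc and S100a9 at 0 counts. The chondrocyte list summed to 45.7 to 242 RPKM, mostly from Col2a1, and Acan stayed at or below 0.0206 RPKM. Of its 4 tested genes, Col2a1, Sox9 and Col9a1 were called higher from 24 h to 14 d (log2 2.54, 1.18 and 6.76). From 14 d to 21 d, Col2a1 and Col9a1 were lower (log2 −1.52 and −2.09) and Col10a1 was higher (log2 4.48). In these bulk samples, fewer cells of a type and less RNA per cell cannot be told apart.

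MMPs are zinc-dependent endopeptidases that are made as inactive proenzymes and together cleave collagens, gelatins, proteoglycans and many cell surface proteins. ADAMTS proteases are secreted relatives with thrombospondin repeats, some of which trim procollagens and others of which cleave large proteoglycans. The TIMPs bind the active site of MMPs, and Timp3 also that of several ADAMTS proteases. In bone, osteoblasts lay down a collagen matrix and remodel it, and Mmp13 and Mmp14 are known for collagen turnover there.

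Expression within the families was concentrated in a few genes. A stage mean of at least 1 RPKM was reached by 22 of the 46 genes in some stage and by 19 in every stage. The filter on low counts kept 30 of them for testing: 12 of 23 Mmp, 14 of 19 Adamts and all 4 Timp genes. Mmp2 was ranked 433 to 542 among all genes by mean RPKM across the stages, and Mmp14 was ranked 695 to 1092. Summed RPKM of the Mmp genes was 707 in both subconfluent libraries, and lowest and highest elsewhere at 814 in confluent B and 1150 in 24 h B. Mmp2 and Mmp14 together made up 92.5% to 93.9% of that sum through 24 h, 88.2% and 86.7% at 14 d, and 85.7% and 83.7% at 21 d.

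The sum of the Timp genes was 632 and 647 RPKM in subconfluent cells and 394 to 560 RPKM in the other libraries. The ratio of summed Mmp to summed Timp RPKM was 1.11 ± 0.0176 (SD, n = 2) in subconfluent, 1.96 ± 0.102 in confluent, 2.59 ± 0.474 at 24 h, 2.09 ± 0.0256 at 14 d and 2.00 ± 0.0517 at 21 d. All later libraries were thus above both subconfluent ones in this ratio, which was not tested. The Adamts sum was 83.0 to 104 RPKM in 9 libraries and 146 RPKM in 24 h B, where Adamts1 alone was 50.1% of it.

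**Figure D1:**
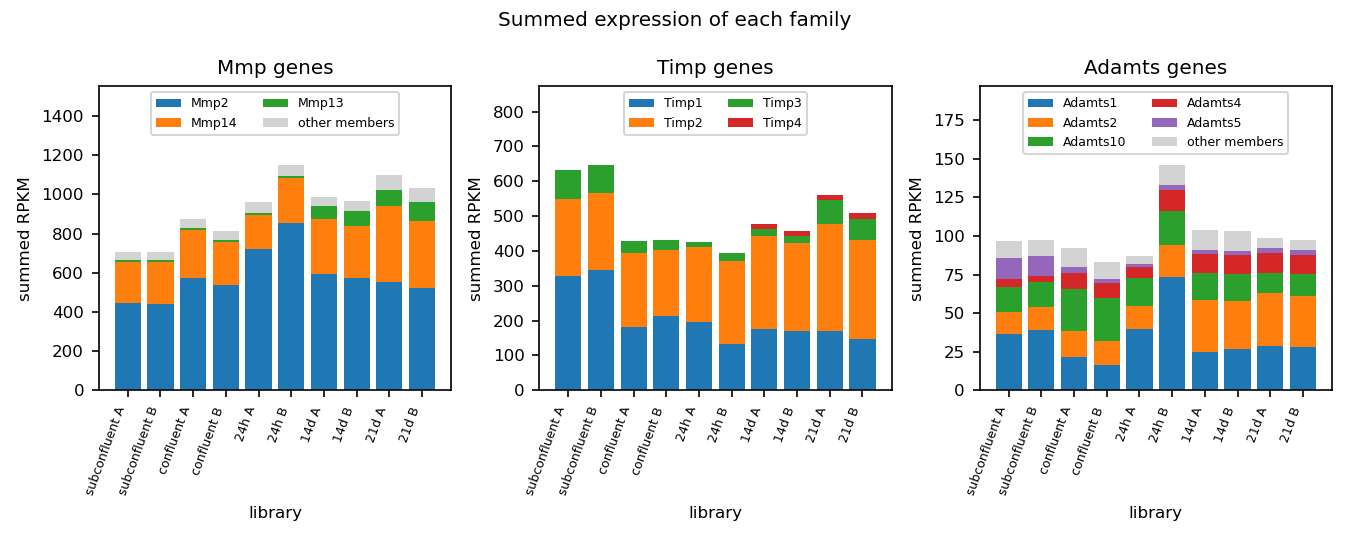
Summed RPKM of the Mmp, Timp and Adamts genes in each of the 10 libraries, split into the leading genes and the other members (bars start at 0, 2 libraries per stage). Mmp2 and Mmp14 fill most of every Mmp bar, Timp1 takes a smaller part of the Timp bars after the subconfluent stage, and the 24 h B library has the highest Adamts bar at 146 RPKM.

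Counts were compared between stages with edgeR's quasi-likelihood test over all 20808 genes tested. A gene was called when its Benjamini-Hochberg adjusted p was under 0.05 and its change over 2-fold. The F test over the 5 stages (adjusted p under 0.05) called 24 of the 30 tested genes, against 48.9% of all genes tested. Adamts6, Adamts7, Adamts12, Adamts13, Mmp17 and Mmp24 did not pass it. From subconfluent to 21 d, 10 of 30 were higher and 4 were lower, against 16.3% and 11.3% of all genes. The genes that were higher included Timp4, Mmp13, Adamts18, Mmp11 and Adamts2, and those that were lower were Adamts5, Adamts9, Adamts14 and Mmp16. The median log2 fold change was 0.13 over the 30 and 0.039 over all genes.

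From confluent cells to 14 d, 7 of 30 were called higher (9.15% of all genes) and Mmp15 alone lower (3.85%). Between 24 h and 14 d, 4 were higher (4.47%) and 1 was lower (1.51%). At confluence, Adamts18, Mmp15 and Adamts4 were called higher than in subconfluent cells (1.0% of all genes) and Adamts5 and Timp3 lower (0.423%). From confluent to 24 h, Adamts18, Adamts1 and Mmp19 were higher (1.76%) and Mmp15 was lower (0.365%). From 14 d to 21 d, Timp3 was higher (1.52%) and Adamts18 was lower (2.45%). Of the 38 calls in the 6 comparisons, 22 were kept when each of the 10 libraries was left out in turn, and 15 were kept under every other fit, scaling and filter that tested the gene, at the same limits. Without 24 h B, more of these genes were called from confluent to 24 h, and more from 24 h to 14 d, though not the same genes. Without confluent A or confluent B, fewer were called from confluent to 24 h. The number called over all genes tested moved in the same direction each time. Without 14 d A, 3 were called from 24 h to 14 d, without confluent B 5 from confluent to 14 d, and at confluence 2 or 3 without any one of the subconfluent, confluent, 14 d or 21 d libraries. The comparisons share stages and so are not independent of each other.

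**Figure D2:**
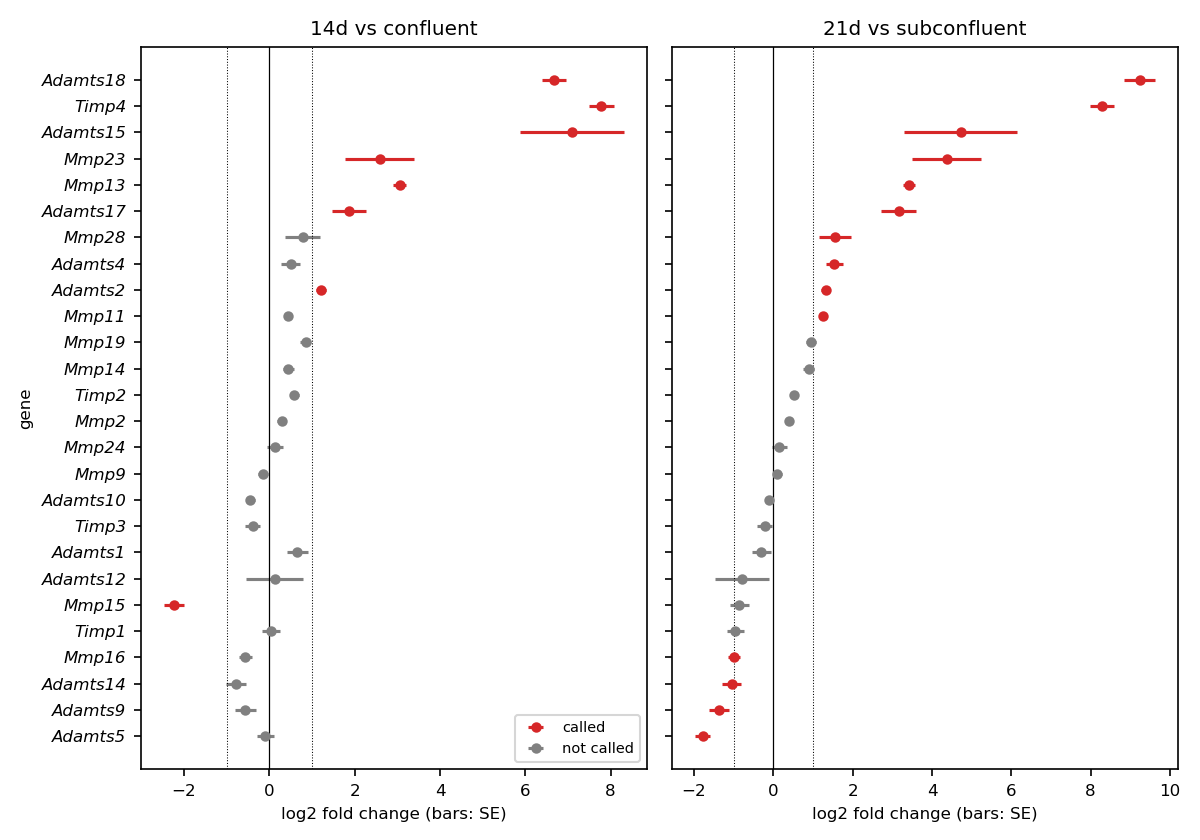
Log2 fold change with its SE (bars) of the 26 genes named here, at 14 d against confluent cells and at 21 d against subconfluent cells. Red points were called and grey points were not, and dotted lines mark 2-fold. Adamts18 and Timp4 lie above 6 in both panels, and the fitted values of Adamts15 rest on a stage with 0 counts.

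Of the interstitial collagenases, which cut triple-helical collagen, Mmp13 (collagenase-3, chr9:7272514-7283331 of GRCm38, plus strand) was the one expressed. Its RPKM values were 9.73 and 8.59 in subconfluent, 10.5 and 9.72 in confluent, and 9.91 and 11.9 in 24 h cells. They were 66.2 and 78.7 at 14 d and 83.8 and 98.1 at 21 d. Both libraries of each late stage thus lay above all 6 early ones, with no overlap. The rise was 7.27-fold from 24 h to 14 d (log2 2.86 ± 0.15 SE, adjusted p = 8.2e-05) and 10.7-fold from subconfluent to 21 d (log2 3.43 ± 0.15, adjusted p = 5.5e-06). From 14 d to 21 d the log2 difference was 0.25 ± 0.14 (adjusted p = 0.33). Leaving out any 1 library kept the 14 d to 24 h log2 difference between 2.71 and 2.99. The mean chondrocyte marker sum was 175 RPKM in subconfluent, 93.5 in confluent, 54.3 in 24 h, 238 in 14 d and 115 in 21 d cells. Its part in the Mmp13 values was not tested. Osteoclast markers were near 0 at all stages, as given above.

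The other collagenases, Mmp8, Mmp1a and Mmp1b, did not pass the filter on low counts. Mmp8 was at 0 counts in the 4 subconfluent and confluent libraries and had 16 counts at most, in 21 d B. With 18 counts at 21 d, it was called higher than in subconfluent cells by DESeq2 and by edgeR without the filter. Fits that left out 1 library called it only while subconfluent A and 21 d B were kept. They all reuse the 16 counts of 21 d B and so are not separate support. Mmp1a had 2 counts in all libraries together and Mmp1b had none.

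Mmp13 lies at one end of a run of 10 Mmp genes that spans 427.1 kb of chromosome 9, the others being Mmp12, Mmp1b, Mmp3, Mmp1a, Mmp10, Mmp8, Mmp27, Mmp20 and Mmp7. Mmp13 held 63405 counts over the 10 libraries. The other 9 held 56 counts together, and Mmp1b, Mmp27, Mmp20 and Mmp7 had none. None of the 9 exceeded 0.0819 RPKM in a library.

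**Figure D3:**
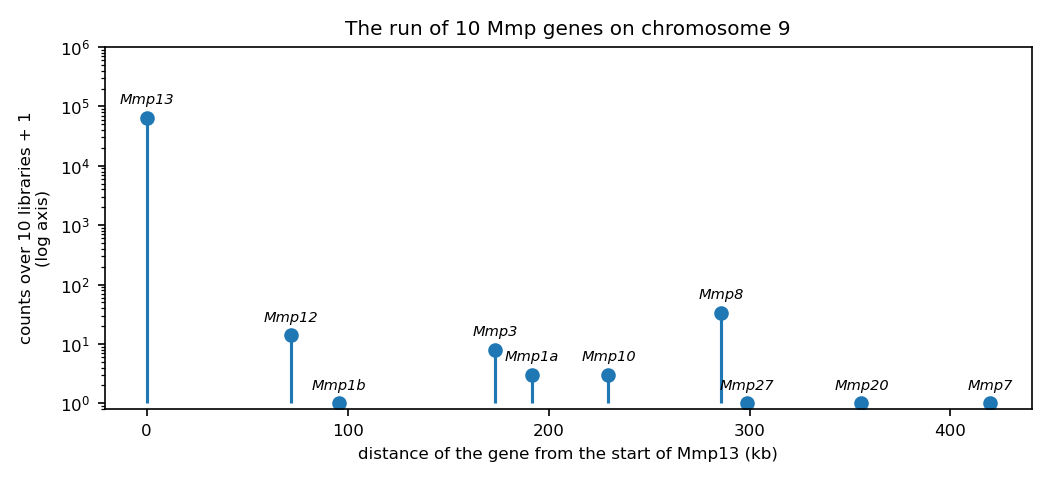
Counts summed over the 10 libraries, plus 1 and on a log axis, for the 10 Mmp genes of the chromosome 9 run, against the distance of each gene from the start of Mmp13 in kb. Mmp13 stands at 63405 counts and no other gene of the run exceeds 32.

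Promoter sequences of RefSeq on GRCm38.p6 were at hand for 32 of the 46 genes, including all 10 of this run. In all, 3 motifs were searched on both strands of the 250 bases before the annotated start nearest to the GENCODE gene start. They were TGANTCA, a loose form of the AP-1 site, TGTGGT, the core of Runx sites, and TATAAA, the TATA box. The letters TGANTCA and TATAAA do not overlap in any sequence shown. N stands for any base, and it was A in the Mmp20 match and C or G in the other matches shown. The sequence before Mmp13 is shown because this gene held nearly all counts of the run. It runs from chr9:7272264-7272513 on the plus strand, and capitals mark the 3 motifs, the first of them TGTGGT read on the opposite strand.
Mmp13: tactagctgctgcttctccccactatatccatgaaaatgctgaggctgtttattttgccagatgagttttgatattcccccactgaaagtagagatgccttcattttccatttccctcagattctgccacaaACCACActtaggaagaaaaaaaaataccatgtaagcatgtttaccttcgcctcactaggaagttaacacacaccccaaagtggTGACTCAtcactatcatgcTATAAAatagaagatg
The 7 genes of the run with a TGANTCA match are shown from 5 bases before that match, so that the match and the TATA box can be compared with those of Mmp13.
Mmp13 (chr9:7272474-7272513, plus): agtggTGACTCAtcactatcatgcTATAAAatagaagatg
Mmp1b (chr9:7388064-7388124, minus): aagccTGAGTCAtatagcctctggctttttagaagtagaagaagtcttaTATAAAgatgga
Mmp3 (chr9:7445771-7445821, plus): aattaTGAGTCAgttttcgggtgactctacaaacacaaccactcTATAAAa
Mmp1a (chr9:7464063-7464123, plus): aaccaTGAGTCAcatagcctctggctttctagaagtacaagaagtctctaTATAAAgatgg
Mmp10 (chr9:7502274-7502334, plus): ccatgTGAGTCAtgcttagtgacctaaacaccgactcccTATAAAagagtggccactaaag
Mmp20 (chr9:7628131-7628191, plus): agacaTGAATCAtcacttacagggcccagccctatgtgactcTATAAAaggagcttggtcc
Mmp7 (chr9:7692022-7692082, plus): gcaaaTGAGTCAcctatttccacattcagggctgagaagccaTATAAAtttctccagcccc
All 7 had TATAAA downstream of the TGANTCA match, 19 bases on in Mmp13 (start to start) and 34 to 45 bases on in the other 6. TGANTCA was found in 7 of the 10 promoters of the run, in 0 of the 22 other promoters of the 32, and in 6.73% of 32536 distinct promoters of the same length. TGTGGT was found in Mmp13, Mmp1b and Mmp27 of the run and in 14.0% of all promoters, and TATAAA in 7 of the run and 12.3% of all. All 3 motifs stood together before Mmp13 and Mmp1b, against 0.194% of all promoters. These are matches of letters only. Mmp1b, with the same 3 motifs, was at 0 counts in all 10 libraries.

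The gelatinases Mmp2 and Mmp9 cleave denatured collagen and basement membrane collagen. Mmp2 (chr8:92827291-92853420, plus strand) was the most abundant gene of the 46 in every library. It stood at 445 and 439 RPKM in subconfluent, 573 and 535 in confluent, 723 and 856 in 24 h, 593 and 572 in 14 d, and 554 and 523 in 21 d cells. The highest values were the 2 at 24 h. It rose by less than 2-fold from confluent to 24 h (log2 0.60 ± 0.10, adjusted p = 0.017) and lay 1.32-fold higher at 21 d than in subconfluent cells (log2 0.40 ± 0.10, adjusted p = 0.011). Mmp9 was far less abundant, at 4.88 and 5.11 in subconfluent, 7.74 and 8.48 in confluent, 8.04 and 9.56 in 24 h, 6.07 and 6.6 in 14 d, and 5.35 and 4.55 in 21 d cells. It rose 1.60-fold at confluence (adjusted p = 0.028), and its values at both ends of the course overlapped (log2 0.10 ± 0.12 at 21 d against subconfluent, adjusted p = 0.50).

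Among the membrane-type MMPs, Mmp14 (MT1-MMP, chr14:54431612-54445364, plus strand), which activates the proenzyme of Mmp2 at the cell surface together with Timp2, was the second most abundant MMP. Its RPKM values were 209 and 215 in subconfluent, 243 and 220 in confluent, 172 and 227 in 24 h, 279 and 265 in 14 d, and 386 and 340 in 21 d cells. The 14 d and 21 d libraries were above all earlier ones. Mmp14 was 1.86-fold higher at 21 d than in subconfluent cells (log2 0.89 ± 0.13, adjusted p = 0.00087), which passed the test but not the 2-fold limit. With upper-quartile scaling it was called in this comparison.

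Mmp15 (MT2-MMP) was low and moved both ways. It was at 0.443 and 0.357 RPKM in subconfluent, 0.922 and 0.941 in confluent, 0.347 and 0.516 in 24 h, 0.179 and 0.161 in 14 d, and 0.224 and 0.184 in 21 d cells. The confluent libraries were the highest and the 14 d and 21 d libraries the lowest. The fall from confluent to 14 d was 4.70-fold (log2 −2.23 ± 0.24, adjusted p = 0.00066) and was kept without each library. The rise at confluence (log2 1.19 ± 0.23, adjusted p = 0.042) was lost without any one of 8 libraries, all but those of 24 h (adjusted p 0.085 to 0.25). The fall from confluent to 24 h (log2 −1.03 ± 0.23) was lost without any one of the 9 libraries other than 24 h B (adjusted p 0.069 to 0.21), and that from 24 h to 14 d without 24 h B, where the log2 change was −1.0, or without either 14 d library (highest adjusted p 0.11).

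Mmp16 (MT3-MMP) stood at 4.07 and 3.43 RPKM in subconfluent, 2.75 and 2.42 in confluent, 1.89 and 2.43 in 24 h, 1.63 and 1.38 in 14 d, and 1.85 and 1.61 in 21 d cells. It fell 2.01-fold from subconfluent to 21 d (adjusted p = 0.0013), and lay under 2-fold without subconfluent A or 21 d B (log2 −0.92 to −0.89). Mmp24 (MT5-MMP) was at 9.36 to 17.1 RPKM and did not pass the F test (adjusted p = 0.11). The GPI-anchored members Mmp17 and Mmp25 were at most 0.204 and 0.0085 RPKM.

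Mmp11 (stromelysin-3, chr10:75923222-75936496, minus strand), an MMP that is activated inside the cell by furin, varied little before the last stage. Its RPKM values ran from 12.2 in confluent B to 16.2 in 24 h B over the first 8 libraries and were 31.4 and 29.5 at 21 d. The 21 d libraries were therefore apart from all others. The difference was 2.36-fold against subconfluent cells (log2 1.24 ± 0.09, adjusted p = 3.7e-05) and 1.97-fold against 14 d (log2 0.98 ± 0.09, adjusted p = 0.0009), just under the 2-fold limit in the latter. The latter was called with upper-quartile factors, with library size alone, without the filter on low counts, on the 2 stages alone, with limma at either pseudocount, and without subconfluent A, subconfluent B or 21 d B. Both stages of the latter carry the same index pair. Mmp3 and Mmp10, the stromelysins of the chromosome 9 run, had 7 and 2 counts in all, and Mmp7 (matrilysin) had none.

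Of the remaining MMPs, Mmp23 and Mmp28 were called higher at 21 d than in subconfluent cells, and Mmp19 at 24 h than in confluent cells. Mmp28 (epilysin) was at 4.98 and 4.66 RPKM in subconfluent, 5.54 and 5.80 in confluent, 2.72 and 8.34 in 24 h, 8.21 and 8.51 in 14 d, and 13.6 and 12.7 in 21 d cells, 2.95-fold above subconfluent at 21 d (log2 1.56 ± 0.41, adjusted p = 0.015). The call was lost without any of the 4 libraries compared (adjusted p 0.053 to 0.082). Mmp28 shares 466 exon bases with 1700020L24Rik on the opposite strand, and the use of strand in the counting is not given in the sources used here, so reads of these genes cannot be told apart.

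Mmp19 was at 6.12 and 5.45 RPKM in subconfluent, 4.45 and 4.85 in confluent, 9.43 and 8.35 in 24 h, 7.30 and 7.13 in 14 d, and 10.3 in both 21 d libraries. The confluent libraries were the lowest and did not overlap with any other stage. It rose 2.04-fold from confluent to 24 h (log2 1.03 ± 0.12, adjusted p = 0.0049), and the log2 change was 0.96 (adjusted p 0.055) without confluent A and 0.88 without 24 h A. Mmp19 shares 789 exon bases with Tmem198b on the opposite strand. Mmp23 was at 0.0562 and 0 RPKM in subconfluent, 0.0524 and 0.0783 in confluent, 0.215 and 0.0958 in 24 h, 0.331 and 0.378 in 14 d, and 0.598 and 0.790 in 21 d cells. It had 13 counts over both subconfluent libraries, all in A, and 189 at 21 d (log2 4.37 ± 0.87, adjusted p = 0.0047), a fitted value that moved to 9.68 without subconfluent A. Its rise from confluent to 14 d (log2 2.59 ± 0.81, adjusted p = 0.046) was lost without any one of the confluent, 14 d and 21 d libraries (adjusted p 0.081 to 0.19).

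The procollagen N-propeptidases Adamts2, Adamts3 and Adamts14 remove the amino-terminal propeptide from fibrillar procollagens. Adamts2 (chr11:50602084-50807573, plus strand) was at 14.2 and 15.0 RPKM in subconfluent, 16.7 and 15.7 in confluent, 15.3 and 20.7 in 24 h, 33.7 and 31.3 in 14 d, and 34.2 and 33.2 in 21 d cells. The late and early libraries did not overlap. Adamts2 rose 2.33-fold from confluent to 14 d (log2 1.22 ± 0.12, adjusted p = 0.00044) and was 2.50-fold higher at 21 d than in subconfluent cells (log2 1.32 ± 0.12, adjusted p = 0.0001). Scaled by library size alone, the former change was 0.99, under the limit. With limma on log2(RPKM + 1) and log2(RPKM + 0.1) it was 0.96 and 1.0, and was not called.

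Adamts14 went the other way, at a lower level. It was at 1.73 and 1.56 RPKM in subconfluent, 2.27 and 1.96 in confluent, 1.63 and 2.82 in 24 h, 1.05 and 1.08 in 14 d, and 0.823 and 0.650 in 21 d cells, 2.07-fold lower at 21 d than in subconfluent cells (adjusted p = 0.0083). The call was lost without subconfluent A or 21 d B (log2 −0.99 to −0.89). Adamts3 had 0 counts in all 10 libraries.

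The hyalectan-cleaving group of ADAMTS proteases, which cut aggrecan and versican, changed in different directions. Adamts5 (aggrecanase-2, chr16:85856173-85901828, minus strand) was at 13.4 and 12.6 RPKM in subconfluent, 3.91 and 2.82 in confluent, 2.03 and 2.96 in 24 h, 2.59 and 2.83 in 14 d, and 3.63 and 3.33 in 21 d cells. Both subconfluent libraries were well above every other. It fell 3.93-fold at confluence (log2 −1.98 ± 0.20, adjusted p = 0.0031) and was 3.44-fold lower at 21 d than in subconfluent cells (log2 −1.78 ± 0.19, adjusted p = 0.00024), and both calls were kept without each library.

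Adamts4 (aggrecanase-1) was at 4.95 and 4.31 RPKM in subconfluent, 10.2 and 9.83 in confluent, 7.47 and 13.6 in 24 h, 12.6 and 11.8 in 14 d, and 12.8 and 12.2 in 21 d cells. All later libraries were above the subconfluent ones. It was 2.92-fold higher at 21 d (log2 1.54 ± 0.22, adjusted p = 0.00095), and its call at confluence (log2 1.09 ± 0.22, adjusted p = 0.047) was lost without any one of the 8 libraries other than those of 24 h (adjusted p 0.10 to 0.26).

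Adamts1, a neighbour of Adamts5 at 53.1 kb on chromosome 16, had its highest values at 24 h. Its RPKM values were 36.7 and 39.0 in subconfluent, 21.8 and 16.3 in confluent, 39.5 and 73.2 in 24 h, 25.1 and 26.5 in 14 d, and 28.7 and 28.0 in 21 d cells. The 24 h libraries differed from each other by more than the other stages did. At confluence Adamts1 was 2.02-fold lower than in subconfluent cells (log2 −1.02 ± 0.25, adjusted p = 0.082), which was not called. It was called there with DESeq2, on the 2 stages alone and without the 24 h stage. From 24 h to 14 d it fell 1.98-fold (log2 −0.99 ± 0.25, adjusted p = 0.035), just under the limit. The rise from confluent to 24 h was 3.12-fold (log2 1.64 ± 0.25, adjusted p = 0.014). It was lost without confluent A or confluent B (adjusted p 0.065 to 0.10), and the log2 change without 1 of the 24 h libraries was 1.22 and 1.98.

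Adamts9 was at 2.86 and 2.84 RPKM in subconfluent, 2.90 and 2.53 in confluent, 1.63 and 3.22 in 24 h, 1.58 in both 14 d, and 1.02 and 1.0 in 21 d cells. It was 2.60-fold lower at 21 d than in subconfluent cells (log2 −1.38 ± 0.25, adjusted p = 0.003). Adamts15 had 0 counts in all 4 subconfluent and confluent libraries, 4 counts at 24 h, 15 and 10 at 14 d, and 2 and 3 at 21 d. With 3 counts put in place of 0 over the earlier stage, Adamts15 was 11.1-fold higher at 14 d than in confluent cells. In the same way it was 2.11-fold higher at 21 d than in subconfluent cells. The later counts, 25 at 14 d and 5 at 21 d, were taken as exact, so these ratios are not lower limits. Against 24 h the ratio was 9.03 (95% counting interval 3.12 to 35.7, counting error only). Its 3 calls rest on these few counts: that against 24 h was lost without any 1 library (highest adjusted p 0.22), that at 21 d without any one of 7, all but the confluent ones and 24 h B (highest adjusted p 0.20), and that against confluent cells without confluent B or 14 d B (adjusted p 0.051 to 0.062). Adamts8, which lies 20.1 kb from Adamts15, had 1 count in all, and Adamts20 had at most 7 counts in a library.

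Adamts7 and Adamts12 cleave cartilage oligomeric matrix protein. Adamts12 was at 4.30 to 5.15 RPKM in the subconfluent, confluent and 14 d libraries, 0.779 and 5.54 at 24 h, and 2.33 and 2.56 at 21 d. The low 24 h value is that of replicate A, and the F test gave an adjusted p of 0.65. Adamts7 was below 1 RPKM throughout, with an adjusted p of 0.10.

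Of the remaining ADAMTS genes, Adamts18 (chr8:113697126-113848738, minus strand) showed the largest relative change. Its counts were 1 and 0 in subconfluent, 11 and 26 in confluent, 67 and 69 in 24 h, 1958 and 872 in 14 d, and 197 and 380 in 21 d cells. In RPKM it was at 0.00173 and 0, 0.0576 and 0.0428, 0.140 and 0.155, 3.87 and 4.70, and 1.0 and 0.845 in the same order. It rose at each step up to 14 d and then fell, without overlap between neighbouring stages. With 1 count in subconfluent cells, the 21 d ratio was 730.3-fold with a 95% counting interval of 131 to 28895. The step from 24 h to 14 d was 31.6-fold (log2 4.98 ± 0.25, adjusted p = 7.8e-05), and the fall to 21 d was 4.90-fold (log2 −2.29 ± 0.22, adjusted p = 0.001) between libraries of the same index pair. The rise from confluent to 24 h (log2 1.69 ± 0.25, adjusted p = 0.013) was lost without confluent A or confluent B (adjusted p 0.057 to 0.11). That at confluence rests on 37 counts against 1, a ratio of 34.4 with a counting interval of 5.80 to 1394. The mean chondrocyte marker sum was 175 RPKM in subconfluent, 93.5 in confluent, 54.3 in 24 h, 238 in 14 d and 115 in 21 d cells. Its part in the Adamts18 values was not tested.

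Adamts17 was at 0.0121 and 0.0179 RPKM in subconfluent, 0.0368 and 0.0438 in confluent, 0.0867 and 0.164 in 24 h, 0.148 and 0.105 in 14 d, and 0.139 and 0.103 in 21 d cells. It was 8.93-fold higher at 21 d than in subconfluent cells (log2 3.16 ± 0.44, adjusted p = 0.00082), at a level that stayed below 0.2 RPKM. Its call at 14 d against confluent cells (log2 1.86 ± 0.40, adjusted p = 0.011) was lost without confluent A, confluent B or 14 d A (adjusted p 0.057 to 0.073). Adamts10, which is known for its part in fibrillin microfibrils, was at 16.2 and 15.9 RPKM in subconfluent, 27.1 and 27.7 in confluent, 17.7 and 22.4 in 24 h, 17.1 and 17.8 in 14 d, and 13.1 and 14.2 in 21 d cells. Its peak at confluence passed the test without reaching 2-fold (log2 0.75 ± 0.10, adjusted p = 0.011).

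The other ADAMTS genes stayed below 1 RPKM. Adamts6 and Adamts13, the protease of von Willebrand factor, were at most 0.700 and 0.233 RPKM, and Adamts16 and Adamts19 had at most 2 counts in a library. Mmp21 had at most 3 counts in a library.

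**Figure D4:**
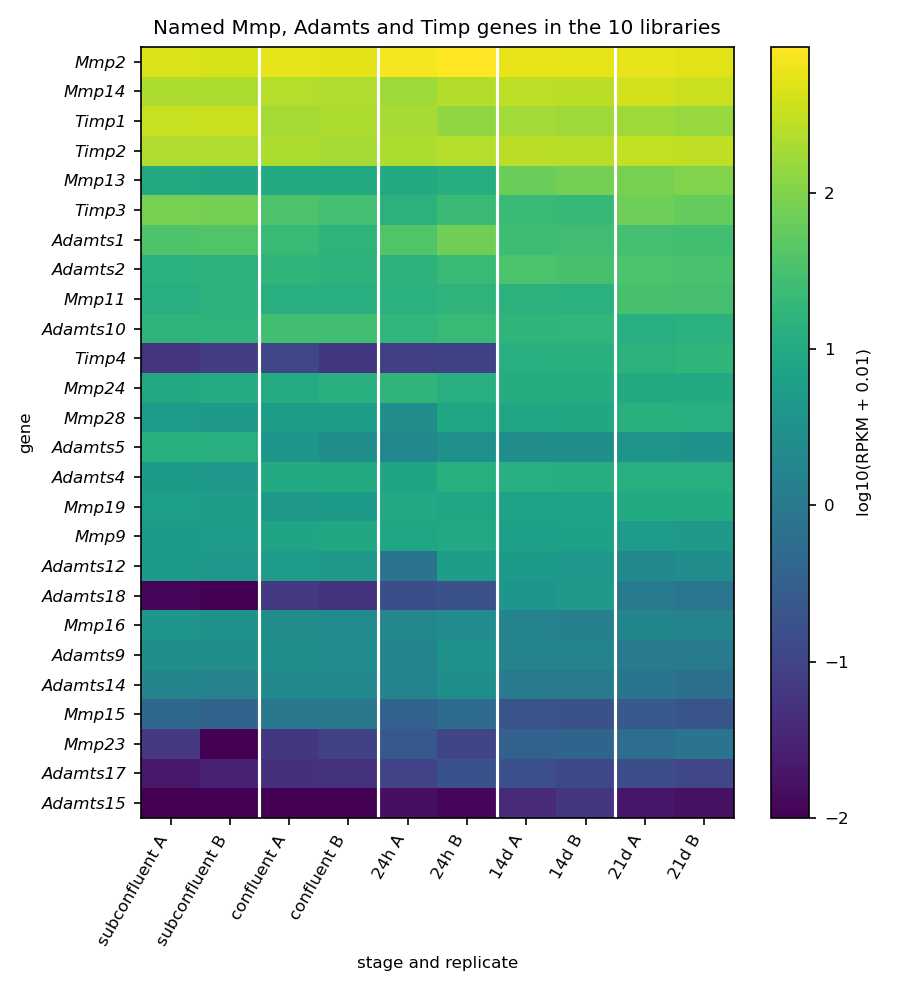
Heat map of log10(RPKM + 0.01) for the 26 genes named with their values, sorted by their highest stage mean, in the 10 libraries (white lines part the stages). Mmp2 is brightest throughout, Timp4 changes from dark to bright between 24 h and 14 d, and Adamts12 and Mmp28 are darker in 24 h A than in 24 h B.

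The 4 inhibitors had 4 different courses. Timp1 (chrX:20870166-20874735, plus strand), a secreted inhibitor that acts poorly on membrane-type MMPs, was at 328 and 344 RPKM in subconfluent, 182 and 213 in confluent, 197 and 132 in 24 h, 176 and 171 in 14 d, and 171 and 148 in 21 d cells. Both subconfluent libraries were above all others. It lay 1.95-fold lower at 21 d than in subconfluent cells (log2 −0.96 ± 0.21, adjusted p = 0.0075), just under the 2-fold limit. Among the fits that kept all 10 libraries, it was called with library size alone and with limma at either pseudocount. Timp2, which takes part in the activation of Mmp2, was at 222 and 223 RPKM in subconfluent, 212 and 189 in confluent, 213 and 239 in 24 h, 266 and 252 in 14 d, and 306 and 283 in 21 d cells. It was 1.44-fold higher at 21 d than in subconfluent cells (log2 0.52 ± 0.10, adjusted p = 0.0034). Timp1 made up 52.0% and 53.2% of the Timp sum in subconfluent cells and 30.5% and 29.1% at 21 d, and Timp2 went from 35.1% and 34.5% to 54.6% and 55.8%. From 24 h on, Timp2 was above Timp1 in every library.

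Timp3 (chr10:86300372-86349506, plus strand), which is bound to the matrix and inhibits Adamts4 and Adamts5, fell and came back. Its RPKM values were 81.6 and 79.7 in subconfluent, 35.2 and 28.8 in confluent, 15.0 and 23.1 in 24 h, 21.4 and 20.5 in 14 d, and 68.4 and 59.7 in 21 d cells. The subconfluent and 21 d libraries stood above the 6 others. The fall at confluence was 2.57-fold (log2 −1.36 ± 0.18, adjusted p = 0.011) and was lost without either subconfluent library or confluent B (adjusted p 0.065 to 0.11). The rise from 14 d to 21 d was 2.90-fold (log2 1.54 ± 0.18, adjusted p = 0.0024), was kept without each library, and lies between libraries of the same index pair. At 21 d Timp3 did not differ detectably from subconfluent cells (log2 −0.22 ± 0.18, adjusted p = 0.35).

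Timp4 (chr6:115241892-115252205, minus strand) went from near absence to a level of 13.0 RPKM and above. Its counts were 7 and 3 in subconfluent, 5 and 8 in confluent, and 9 and 9 in 24 h cells, and then 1657 and 631 at 14 d and 725 and 1923 at 21 d. In RPKM it was at 0.0482 to 0.104 in the 6 early libraries, 13.0 and 13.6 at 14 d, and 14.7 and 17.0 at 21 d. No other of the 30 tested genes moved so far in a single step: 183-fold from 24 h to 14 d (log2 7.52 ± 0.28, adjusted p = 3.1e-05). From 10 counts in subconfluent cells, the 21 d ratio was 335-fold (95% counting interval 182 to 699.7). From 14 d to 21 d the log2 difference was 0.18 ± 0.20 (adjusted p = 0.69).

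**Figure D5:**
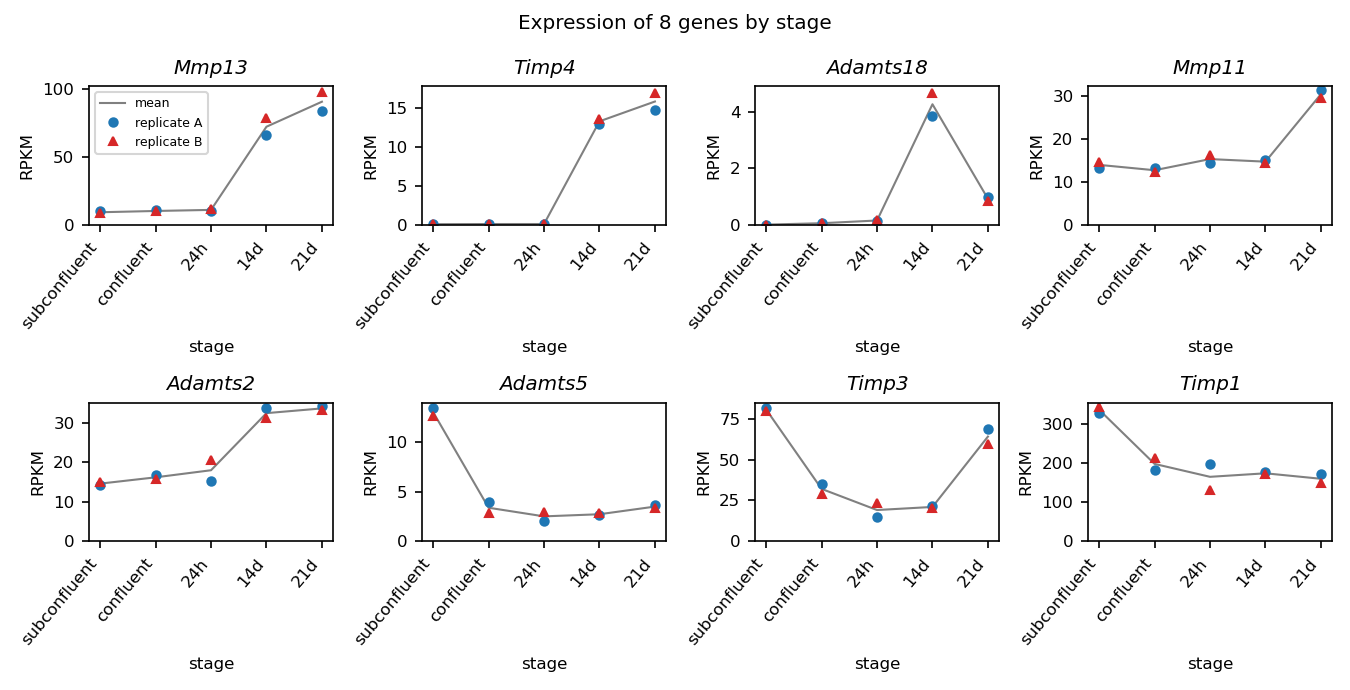
RPKM of 8 genes at the 5 stages, with replicate A as circles, replicate B as triangles and the stage mean as a line (each axis starts at 0). Mmp13 and Timp4 step up at 14 d and stay high, Adamts18 peaks at 14 d, Mmp11 is highest at 21 d, Adamts5 and Timp1 are highest in subconfluent cells, and Timp3 is high at both ends.

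The 250 bases before Timp4, chr6:115252206-115252455 on the minus strand, are shown because this gene had the largest single step. They held none of the 3 motifs, so there are no capitals.
Timp4: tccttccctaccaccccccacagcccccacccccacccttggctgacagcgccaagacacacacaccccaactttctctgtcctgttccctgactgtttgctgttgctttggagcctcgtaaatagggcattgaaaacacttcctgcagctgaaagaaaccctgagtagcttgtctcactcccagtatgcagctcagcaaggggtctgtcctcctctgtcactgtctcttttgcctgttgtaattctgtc
Timp4 lies inside Syn2, Timp3 inside Syn3 and Timp1 inside Syn1, each on the opposite strand. The shared exon bases were 90 for Timp4 and 1733 for Timp3. The mean counts per library of Syn2 and Syn3 were 48.1 and 12.3, far below those of the Timp genes at their high stages.

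Genes that work with these proteases were counted from lists of ADAMTS-like proteins, ADAM sheddases, procollagen C-proteinases and enhancers, proprotein convertases, the plasminogen system, other MMP regulators, cysteine cathepsins and substrates. From subconfluent to 21 d, 11 of the 45 tested were called higher and 5 lower, where 16.3% and 11.3% of all genes were. From confluent to 14 d, 8 were higher and 1 was lower, where 9.15% and 3.85% of all genes were. Their median log2 fold change was 0.19 in the former comparison. The shares of all genes in the former comparison apply to each list counted below at 21 d against subconfluent cells. With 3 to 10 tested genes in a list, these counts were not tested.

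Of the activators, Pcsk6, a furin-like convertase of proenzymes, was at 3.08 and 4.16 RPKM in 24 h and 9.11 and 10.6 in 14 d cells (log2 1.58 ± 0.15, adjusted p = 0.00088). It was the 1 gene called among the 3 tested convertases in that step, where 4.47% of all genes were called higher. Furin was at 8.17 to 13.5 RPKM throughout. Of the 3 tested procollagen C-proteinases and enhancers, Pcolce2 was lower at 21 d than in subconfluent cells (log2 −1.13, adjusted p = 0.00026). Of 5 tested plasminogen system genes, 2 were higher at 21 d than in subconfluent cells (16.3% of all genes) and 1 lower (11.3%). Plat, the tissue plasminogen activator, and Serpine2, an inhibitor of serine proteases, rose (log2 1.04 and 1.29). Plaur, the urokinase receptor, fell (log2 −1.13). Of the 6 other MMP regulators, Reck, a membrane-anchored inhibitor of MMPs, was higher (4.20 to 5.01 RPKM in subconfluent, 10.3 and 8.85 at 21 d), as was Lrp1, which clears proteases from the surface, and Itgav was lower.

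Of the 10 ADAM genes, Adam12 alone was called higher from confluent to 14 d, where 9.15% of all genes were. From 14 d to 21 d Adam12 alone was called lower (2.45% of all genes). It was at 3.19 and 2.76 RPKM in confluent, 3.68 and 7.64 RPKM in 24 h, 10.2 and 10.6 in 14 d, and 3.29 and 2.80 in 21 d cells (14 d to 21 d log2 −1.85, adjusted p = 0.0065). Of the 6 ADAMTS-like genes, which lack the protease domain, Papln rose from 0 in both subconfluent libraries to 0.857 and 0.733 RPKM at 21 d, and Adamtsl3 fell from 32.5 and 31.9 to 9.18 and 9.33 RPKM (log2 −1.68, adjusted p = 0.001). Of the 5 tested cathepsins, Ctsk and Ctsl were higher at 21 d (log2 1.28 and 1.37), where 16.3% of all genes were.

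Of the 7 tested substrates, versican (Vcan), which Adamts1, Adamts4 and Adamts5 cleave, fell from 8.51 and 8.19 RPKM in subconfluent to 1.23 and 0.967 at 21 d (log2 −2.81, adjusted p = 4.9e-05). Fibronectin (Fn1) rose from 486 and 488 to 2820 and 2480 RPKM (log2 2.56, adjusted p = 0.00044). Brevican (Bcan), like Vcan a hyalectan, was called higher at 21 d than in subconfluent cells (log2 1.60, adjusted p = 0.0082), at 0.0358 and 0.0496 RPKM in subconfluent, 0.355 and 0.345 in 14 d, and 0.0966 and 0.134 in 21 d cells. Comp, the substrate of Adamts7 and Adamts12, rose from 0.642 and 0.402 to 2.98 and 3.07 RPKM (log2 2.63, adjusted p = 0.00016). Col1a1, whose procollagen Adamts2 trims, was at 10400 and 9000 RPKM at 14 d and 5290 and 4900 at 21 d (log2 −1.0, adjusted p = 0.026). For Adamts2 this comparison gave no detectable difference (log2 −0.02 ± 0.12, adjusted p = 0.96).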

How the data were processed

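The series holds 10 RNA-seq libraries (51 bp paired-end) of MC3T3-E1 osteoblasts, 2 for each of 5 stages, grouped by their titles. The deposited count table holds whole read counts per Ensembl gene, and the deposited RPKM table holds reads scaled to gene length and depth as the authors made them (the study's text speaks of FPKM). The submitters' processing notes list mm10, TopHat2 2.0.9, R 3.0.1 and FastQC. The counting tool, the annotation and the use of strand are not given in the sources used here. The RPKM values were found to be scaled to a number of reads 1.443 to 1.601 times below the total count, and 17 genes have no RPKM value. The libraries 14 d A and 21 d B have 2 lanes each, and their merged columns were used, although 20 and 24 of the genes had merged counts other than the lane sums (by up to 6.64% and 5.79% where counts were 100 or more).

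Symbols and coordinates came from GENCODE vM21 on GRCm38, which names 39547 of the 40620 identifiers. Counts were fitted with edgeR 4.0.16 in R 4.3.3 (filterByExpr, TMM, quasi-likelihood F test, 5 groups, 10 samples). The fit gave 6 comparisons and an F test over stages, with Benjamini-Hochberg adjustment over 20808 genes. SE is the log2 fold change over the square root of F. Every gene with a stage mean of at least 1 RPKM or a call was named with its values, and the others with their highest counts. Counts behind ratios with at most 10 reads in a stage were compared with exact 95% intervals. A stage at 0 was set to a floor of 3 counts. The intervals cover counting error only, and the floor only that of the stage at 0. Family sums and ratios of RPKM were not tested. Promoters came from RefSeq. Alternatives included DESeq2 1.42.0, limma 3.58.1 on log2(RPKM + 1) and log2(RPKM + 0.1), other scalings and filters, a replicate block, and leaving out each library. The genes and the lists were chosen with earlier results of these data known.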

Additional observations from a re-analysis of the deposited data

How the results depend on the processing

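None of the 1285 log2 fold changes recomputed for the 60 pairs of gene and comparison with an adjusted p under 0.05 changed sign, and 1117 stayed on the same side of the call. A call was lost in 133 and gained in 35. The F test over stages kept within 1.5 times of its 24 genes under every alternative run, with 20 to 30 without 1 library.

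The number of genes called at confluence was 5. It was 3 with library size alone, with the replicate block and with limma on log2(RPKM + 0.1), 2 with limma on log2(RPKM + 1), 1 at more than 4-fold, and 2 to 7 without 1 library. From confluent to 24 h it was 4, and 2 with library size alone, 1 with limma at either pseudocount and 0 at more than 4-fold. It moved both ways when 1 library was left out. With edgeR on these 2 stages alone it was 0 of 28 (6 at an unadjusted p under 0.05). That fit called 0 of all 19562 genes tested, so its 0 says nothing particular about these genes. With DESeq2 on all samples it was 5. From 24 h to 14 d it was 5, and 8 with library size alone, 3 with at least 10 counts in every sample, 3 on the 2 stages alone, 9 with any fold change and 3 to 8 without 1 library.

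From 14 d to 21 d it was 2, and 1 with at least 10 counts in every sample, 4 with any fold change, 1 at more than 4-fold and 2 to 3 without 1 library. From confluent to 14 d it was 8, and 3 with at least 10 counts in every sample, 3 and 5 with limma at a pseudocount of 1 and 0.1, 15 with any fold change and 5 to 8 without 1 library. From subconfluent to 21 d it was 14, and 9 with at least 10 counts in every sample, 8 with limma on log2(RPKM + 1), 6 at more than 4-fold and 10 to 15 without 1 library. The filter of 10 counts in every sample leaves 25 of the 30 genes, without Timp4, Adamts18, Adamts15, Adamts17 and Mmp23. These were called as reported from confluent to 14 d and from subconfluent to 21 d, and have no value with this filter. The calls of Adamts2, Mmp15 and Mmp13 from confluent to 14 d were kept with it. From subconfluent to 21 d, Mmp16 was no longer called with it and Mmp19 was. For the other alternatives the cause was not tested. The number called over all genes tested moved too. From confluent to 14 d it was 2705, 1784 with that filter, and 1343 and 2523 with limma at a pseudocount of 1 and 0.1. From subconfluent to 21 d it was 5740, 4252 with that filter and 3396 with limma on log2(RPKM + 1). At confluence it was 297, and 128 and 255 with limma in the same order. From confluent to 24 h it was 443, and 178 and 357 with limma. From 24 h to 14 d it was 1245, and 732 with that filter.

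Scaling by library size alone moved the median change over all genes, on the log2 scale, to −0.20 from confluent to 14 d, −0.13 from confluent to 24 h and −0.12 from subconfluent to 21 d, and upper-quartile scaling moved the last to 0.17. The higher and lower genes from subconfluent to 21 d were then 10 and 6 with library size alone and 12 and 2 with upper-quartile factors, in place of 10 and 4. From 24 h to 14 d they were 4 and 4 with library size alone, in place of 4 and 1. Over all genes, library size alone gave 1434 higher and 1447 lower from confluent to 14 d, in place of 1903 and 802. From subconfluent to 21 d it gave 2828 and 2951, in place of 3394 and 2346. It called 247 genes at confluence in place of 297, and 368 from confluent to 24 h in place of 443. From 24 h to 14 d it called 1244 in place of 1245.

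The replicate letters do not pair the libraries: the correlations of the A to B differences between stages were −0.184 to 0.1. The replicate block gave 3 genes called at confluence, 3 from confluent to 24 h, 4 from 24 h to 14 d, 2 from 14 d to 21 d, 7 from confluent to 14 d and 13 from subconfluent to 21 d. Over all genes the block gave 213, 320, 1039, 731, 2502 and 5550 in the same order. Without the block these numbers were 297, 443, 1245, 826, 2705 and 5740. With the lane sums in place of the merged columns, an alternative chosen after seeing the data, all 7 counts of the genes studied here were unchanged.

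With CPM in place of RPKM, the ratio of summed Mmp to summed Timp expression was 1.04 in subconfluent, 2.02 at 14 d and 1.54 at 21 d. The 16 genes removed by the filter on low counts have no value in the comparisons as reported, and with 2 libraries per stage the spread rests on few samples.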
